A study of Bos taurus with 8 samples.

Results

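METTL21E, SMTNL2 and NDRG2 are 3 muscle-enriched genes that were among the deepest falls of Holstein-Friesian against Limousin muscle. They were selected on that Holstein-Friesian log2 ratio, so it is given here as values with no test. Each gene was found by the RefSeq transcript of its probe, and each had 1 probe, printed as 2 spots on every array. They are 3 of 7788 genes that could be named on the array, and 6642 of those had a probe that passed a filter on dim signal and an official symbol. All 3 passed it, with 16 of 16 readings well above background and 0 saturated or outlying spots.

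The study set muscle of breeds with well-marbled beef against muscle of a lean breed. Total RNA of the semitendinosus, a muscle of the hind leg that moves the animal, came from 12 bulls aged 15 months and was measured on 8 bovine Agilent arrays. On 4 arrays a Holstein-Friesian bull, labelled with Cy3, was hybridised against a Limousin bull in Cy5. On the other 4 a Hereford bull, labelled with Cy5, was hybridised against a Limousin bull in Cy3. By the labels the same 4 Limousin bulls served in both sets, so the comparisons share their control animals. Every Hereford sample was read in Cy5 on 1 slide and every Holstein-Friesian sample in Cy3 on another, and breed, dye and slide cannot be told apart.

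METTL21E belongs to a family of enzymes that add methyl groups to lysines of other proteins. In mouse it is made in skeletal muscle, and its human counterpart is a pseudogene. SMTNL2 is a smoothelin-like protein with a calponin homology domain, a fold found in many actin-associated proteins, and in mouse it binds and is phosphorylated by the stress kinase JNK. NDRG2 is a member of the N-myc downstream-regulated family with an alpha/beta-hydrolase fold. In human cells MYC represses it, and in mouse muscle cells the coactivator PGC-1alpha raises it. The tissue is bulk muscle, so fewer cells of a type and less RNA per cell cannot be told apart.

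METTL21E was low in Holstein-Friesian and variable in Hereford. Its log2 ratio to Limousin was -1.47, -2.18, -2.85 and -1.60 on Holstein-Friesian arrays 1 to 4. On Hereford arrays 1 to 4 it was 2.29, -0.35, -0.22 and 1.35. All 4 Holstein-Friesian bulls lay below their Limousin partner, while 2 Hereford bulls lay above theirs and 2 below. The Holstein-Friesian mean was -2.02 (SD 0.63, n = 4), a level 4.06 times higher in Limousin, and it ranked 3 of 6642 falls of named genes. Of all 17061 probes tested, 6.45% were called in Holstein-Friesian, 3.45% were called lower and 20.7% were below Limousin on all 4 of its arrays. The ratio that chose the genes is not read against these shares. The Hereford mean was 0.77 (SD 1.28, n = 4, limma adjusted p = 0.334), with a 95% interval of -0.23 to 1.77. The interval holds 0 and also holds rises larger than 1 log2 unit. The difference between the breeds' ratios, Holstein-Friesian minus Hereford, was -2.79 (SD 0.80, n = 4).

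SMTNL2 was low in both marbled breeds. Its log2 ratio was -2.17, -1.43, -1.21 and -1.46 on the Holstein-Friesian arrays. On the Hereford arrays it was -1.66, -1.04, -0.77 and -1.16. The Holstein-Friesian mean was -1.56 (SD 0.42, n = 4), a level 2.96 times higher in Limousin, ranked 6 of 6642 falls. In Hereford, SMTNL2 fell by 1.16 log2 (SE 0.18, SD 0.37, n = 4, limma adjusted p = 0.0136, 95% interval -1.56 to -0.76). The Hereford ratio was not used to choose the genes, but the Limousin bulls in it are those of the Holstein-Friesian ratio that was. The Hereford tests of all 3 genes are therefore not independent of the choice, and no value for this sharing was computed. Limousin stood 2.23 times higher than Hereford, and all 4 Hereford bulls lay below their Limousin partner. Of all probes, 7.14% were called in Hereford, 3.75% were called lower there and 13.9% were below Limousin on all 4 of its arrays. SMTNL2 ranked 21 of 6642 named genes in the order of the Hereford falls. The Hereford call of SMTNL2 was lost without replicate 2 (-1.199, limma adjusted p = 0.0831) and without replicate 4 (-1.16, 0.0966). It was also lost from the Hereford arrays alone, without a spread pooled over both breeds (-1.16, 0.0586). The ratio itself changed little. Over all probes, Hereford calls fell from 1218 to 45, 30 and 27 in the same reruns. Holstein-Friesian minus Hereford was -0.40 (SD 0.09, n = 4), beside SDs of 0.42 and 0.37 among the arrays of each breed. Median centring of the arrays in place of loess moved the median of all probes to -0.20 in Holstein-Friesian. With it SMTNL2 had -2.22 in Holstein-Friesian and -0.84 in Hereford (limma adjusted p = 0.0457).

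NDRG2 was low on all Holstein-Friesian arrays and on all Hereford arrays but 1. Its log2 ratio was -1.56, -1.52, -2.05 and -0.94 on the Holstein-Friesian arrays. On the Hereford arrays it was 0.17, -1.06, -1.003 and -1.09. Hereford array 1 stood apart from the other 3, which lay within 0.1 of each other. The Holstein-Friesian mean was -1.52 (SD 0.45, n = 4), with Limousin 2.87 times higher, ranked 8 of 6642 falls. The Hereford mean was -0.75 (SD 0.61, SE 0.24, n = 4), and it did not pass the test over all probes (limma adjusted p = 0.099, unadjusted p = 0.0132, 95% interval -1.29 to -0.20). Without replicate 1 of both breeds it was -1.05 and passed (limma adjusted p = 0.0362). Without replicate 2, 3 or 4 it was -0.66 to -0.63 and did not pass (limma adjusted p 0.219 to 0.362). Holstein-Friesian minus Hereford was -0.77 (SD 0.81, n = 4). With median centring NDRG2 had -2.19 in Holstein-Friesian and -0.33 in Hereford (limma adjusted p = 0.525).

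**Figure D1:**
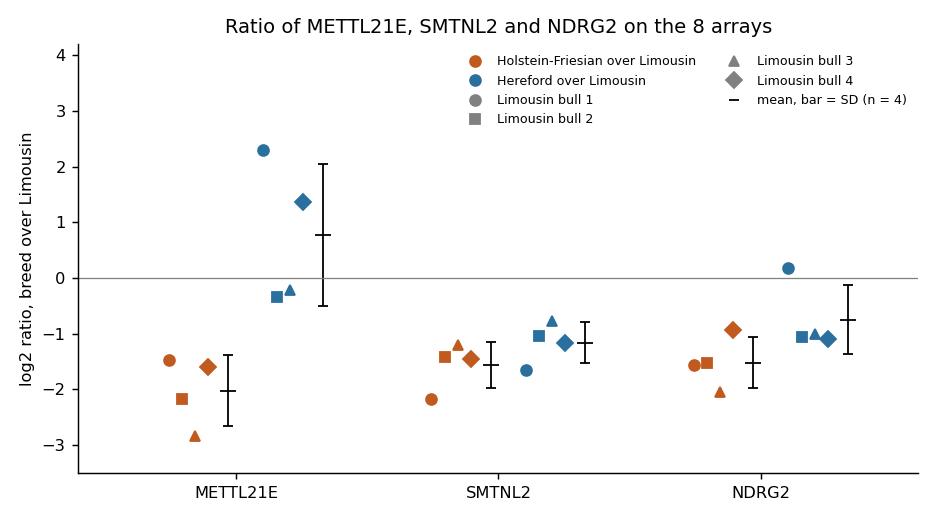
Log2 ratio of breed over Limousin for METTL21E, SMTNL2 and NDRG2 on each array. Points are arrays, shapes mark the Limousin bull, and the dash and bar are the mean and SD of 4 arrays. All 12 Holstein-Friesian points lie below 0, and their ratio chose the genes. Of the Hereford points, 4 of 4 lie below 0 for SMTNL2, 3 for NDRG2 and 2 for METTL21E. Over all probes, 20.7% were below Limousin on all 4 Holstein-Friesian arrays and 13.9% on all 4 Hereford arrays.

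In the order of Holstein-Friesian ratios, MT2A (-3.07), a metallothionein, and COL3A1 (-2.53), a collagen chain, lay below METTL21E. PVALB (-1.90), the calcium buffer of fast fibres, and UCP3 (-1.67), a mitochondrial carrier of muscle, lay between METTL21E and SMTNL2. MX1 (-1.53), an interferon-induced GTPase, lay between SMTNL2 and NDRG2. IFI47 (-1.49), PDLIM7 (-1.39) and SPSB2 (-1.34) followed. The steps between SMTNL2, MX1, NDRG2 and IFI47 were smaller than the SD of any of them, so their order is not resolved by these arrays. Hereford ratios of these neighbours ranged widely, with -3.45 for MT2A, -1.35 for MX1, -0.23 for COL3A1 and 0.47 for IFI47.

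Signals of the 2 dyes were also read one at a time, as log2 normalized signal. Levels of the Holstein-Friesian arrays underlie the ratio that chose the genes, so Holstein-Friesian below Limousin was largely built in. METTL21E had levels of 7.26, 7.998, 7.65 and 7.77 in Holstein-Friesian, against 8.72, 10.17, 10.50 and 9.36 in the Limousin bulls of the same arrays. It had 11.35, 9.37, 9.60 and 10.32 in Hereford, against 9.06, 9.72, 9.82 and 8.96 in Limousin. No Holstein-Friesian bull reached the lowest Limousin bull, whereas Hereford and Limousin overlapped. The Holstein-Friesian spots were dim, at 37.5 to 85.25 intensity units over local background, against 490.5 to 2114.25 in Limousin. With Agilent's processed signals, which were background-subtracted and dye-normalized in another way, the Holstein-Friesian mean was -2.87 in place of -2.02. The part of the background step in the size of the ratio was not tested.

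SMTNL2 had levels of 11.67, 12.00, 12.52 and 12.03 in Holstein-Friesian, against 13.84, 13.43, 13.73 and 13.49 in Limousin. In Hereford it had 12.37, 12.39, 12.93 and 12.25, against 14.03, 13.43, 13.71 and 13.42 in Limousin. Neither marbled breed overlapped Limousin for this gene. Limousin averaged 13.62 in Cy5 and 13.65 in Cy3, almost the same level in either dye. Of all probes, 8.31% had 4 Holstein-Friesian levels below the 4 Limousin levels of the slide, and 7.67% had this in Hereford.

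NDRG2 had levels of 12.84, 12.98, 12.76 and 13.40 in Holstein-Friesian, against 14.40, 14.50, 14.81 and 14.34 in Limousin. In Hereford it had 15.02, 13.65, 14.11 and 13.21, against 14.85, 14.71, 15.11 and 14.30 in Limousin. The Holstein-Friesian bulls lay below every Limousin bull, and Hereford overlapped Limousin through array 1. For each gene the Holstein-Friesian mean was the lowest of the groups, and its place below Limousin was largely fixed by the choice of genes. The Holstein-Friesian and Hereford levels overlapped for SMTNL2 and NDRG2 but not for METTL21E, and these were read in different dyes. The share of all probes without overlap between these breeds was not counted. Low Holstein-Friesian levels were partly built in by the choice of genes, so the gap in METTL21E is a description.

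**Figure D2:**
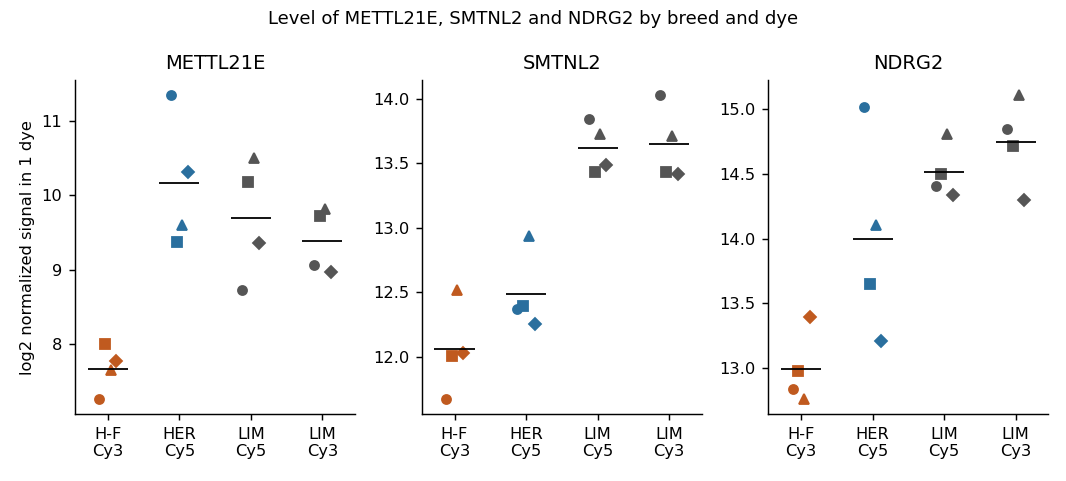
Log2 normalized signal of 1 dye for each gene, by breed and dye; points are bulls, shapes mark the array number and lines are means of 4. H-F is Holstein-Friesian, HER Hereford and LIM Limousin. The axes do not start at 0 and differ between genes. In each panel the 4 Holstein-Friesian points lie below all 8 Limousin points, largely by the choice of genes. The share of all probes was counted only against the 4 Limousin points of the same slide, 8.31%.

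Since the same Limousin bulls were labelled with Cy5 on 1 slide and Cy3 on the other, each marbled breed could be set against Limousin in its own dye, across slides. Within Cy3, Holstein-Friesian minus Limousin was -1.72 for METTL21E (SD 0.40), -1.59 for SMTNL2 (SD 0.52) and -1.75 for NDRG2 (SD 0.62). All 12 values lay below 0, and the means lay within 0.4 of those between dyes. The Holstein-Friesian readings in Cy3 are those of the ratio that chose the genes, so low values were largely built in. Within Cy5, Hereford minus Limousin was -1.13 for SMTNL2 (SD 0.29, n = 4), below 0 in 4 of 4 bulls. NDRG2 had -0.52 (SD 0.78, n = 4) and METTL21E 0.47 (SD 1.67, n = 4). The Limousin readings in Cy5 are those of the ratio that chose the genes, so these are values with no test.

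The Limousin bulls themselves give the dye and slide effect of each probe. Limousin in Cy5 minus Limousin in Cy3 averaged -0.03 for SMTNL2 (SD 0.11), -0.23 for NDRG2 (SD 0.20) and 0.30 for METTL21E (SD 0.44). Over all probes the median size of this difference was 0.0837, and 95% of probes were below 0.324. SMTNL2 thus lay near 0, while METTL21E and NDRG2 lay in the upper part of that range. Both spots of a probe differed little on an array, by at most 0.165 in METTL21E, 0.0864 in SMTNL2 and 0.125 in NDRG2 on the log2 scale.

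**Figure D3:**
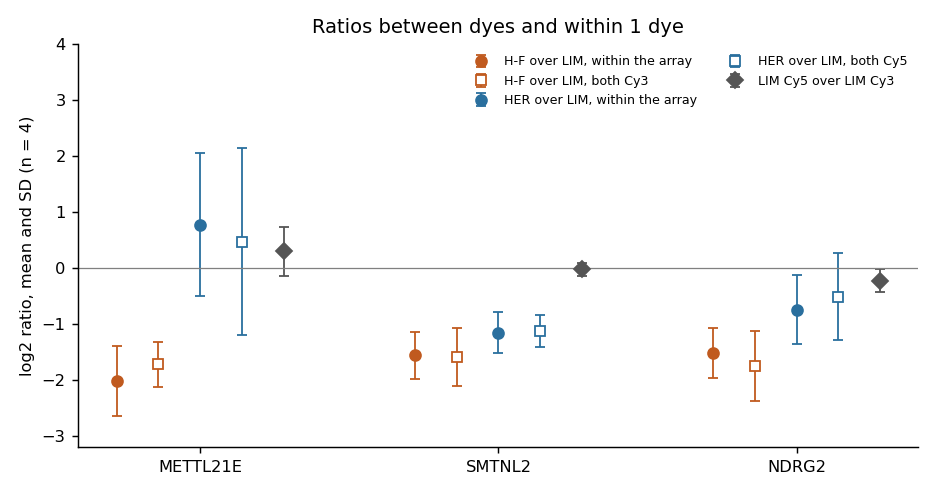
Mean log2 ratio and SD (n = 4) of each gene read within the array (filled circles), within 1 dye across slides (open squares) and in Limousin against itself (diamonds). Holstein-Friesian is at -1.52 or below in either reading, and both readings hold the Holstein-Friesian signals used to choose the genes. SMTNL2 of Hereford is -1.16 and -1.13, and the Limousin diamonds lie between -0.23 and 0.30.

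The 3 genes did not share 1 pattern over the 8 arrays. The root mean square difference between their log2 ratios was 0.771 for SMTNL2 and NDRG2, 1.28 for METTL21E and NDRG2, and 1.82 for METTL21E and SMTNL2. Arrays share Limousin bulls and slides, so these distances are descriptions. Genes near a member were picked on these same 8 ratios, so any likeness to it is built in. The 5 named genes closest to METTL21E were KCTD15 (0.850), COL1A2 (0.877), COL1A1 (0.960), SPARC (0.971) and COL3A1 (0.996). The COL genes encode chains of fibrillar collagen and SPARC a collagen-binding matrix protein. KCTD15 had ratios of -0.42, -1.56, -2.33 and -0.40 in Holstein-Friesian and 1.08, 0.68, -0.04 and 1.197 in Hereford. Like METTL21E, it was lowest on Holstein-Friesian array 3 and highest on Hereford arrays 1 and 4.

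Of the 10 fibroblast markers, 9 were measured. Their median ratio was -0.18, -0.37, -0.63 and -0.14 on the Holstein-Friesian arrays and 0.54, -0.43, -0.22 and -0.02 on the Hereford arrays. Their mean level was 10.18 to 11.17 in Holstein-Friesian, against 10.92 to 11.63 in Limousin, and 10.93 to 11.59 in Hereford, against 11.04 to 11.60 in Limousin. Of these markers, COL1A1, COL1A2 and COL3A1 are also among the 5 genes picked as nearest to METTL21E, and the median of Hereford array 1 is the value of COL3A1. Any likeness between the list and METTL21E over these arrays is partly built in, and the part of these markers in its values was not tested. Among those 9, COL3A1 was called lower in Holstein-Friesian and 0 were called in Hereford by limma (4 and 1 at an unadjusted p under 0.05).

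The genes closest to SMTNL2 were GSR (0.484), which encodes glutathione reductase, BTBD10 (0.524), FNTB (0.575), the beta subunit of farnesyltransferase, CCDC12 (0.583) and S100A14 (0.600). GSR had ratios of -1.50, -0.81, -0.55 and -0.93 in Holstein-Friesian and -1.78, -0.89, -0.57 and -0.66 in Hereford. All 5 were lower than Limousin on average in both breeds, which the pick of genes near SMTNL2 largely fixed. The genes closest to NDRG2 were UCP3 (0.440), PDLIM7 (0.467), an actin-linked PDZ and LIM domain protein, ABCF2 (0.486), ATP2B2 (0.486), a plasma membrane calcium pump, and SPSB2 (0.517). UCP3 had -1.85, -1.83, -1.61 and -1.40 in Holstein-Friesian and -0.20, -1.63, -1.21 and -0.41 in Hereford. Its least low Hereford array was array 1, and likeness to NDRG2 is built in by the pick.

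**Figure D4:**
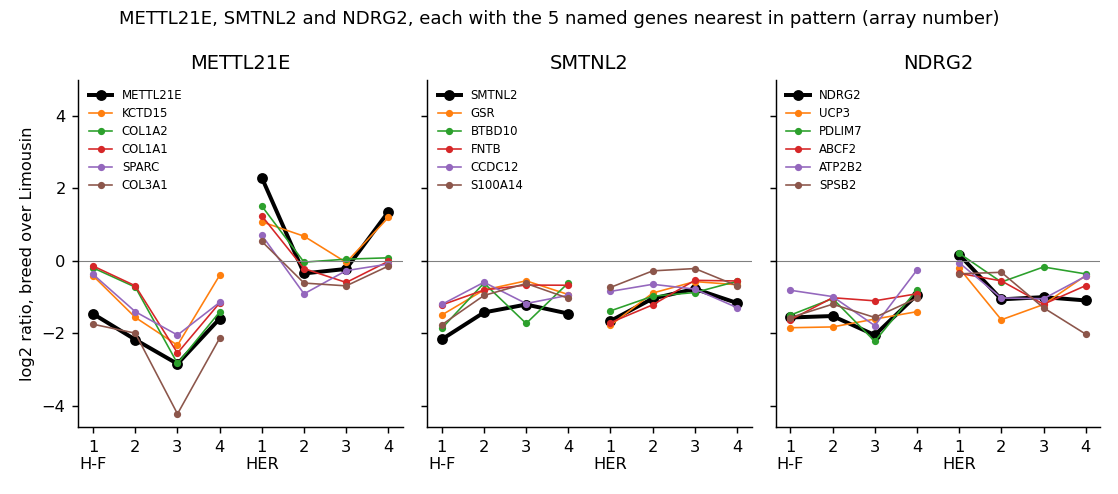
Log2 ratio of breed over Limousin on each array for METTL21E, SMTNL2 and NDRG2 (black) and the 5 named genes nearest to each (colours), Holstein-Friesian (H-F) arrays left and Hereford (HER) arrays right. Lines join arrays for legibility only; METTL21E spans -2.85 to 2.29, while SMTNL2 stays between -2.17 and -0.77.

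Genes related to the 3 were read from lists of paralogs, substrates, partners and fibre-type genes. Across named genes, 7.5% were called in Holstein-Friesian (4.02% higher, 3.48% lower) and 7.36% in Hereford (3.39% higher, 3.97% lower), and the median log2 ratio was -0.0019 and -0.00095. Of 79 related genes tested, 21 were called in Holstein-Friesian and 16 in Hereford. Most of these calls came from the immediate early and slow-fibre lists. The counts depended on which replicate was left out: without replicates 1, 2, 3 and 4 they were 15, 5, 12 and 7 in Holstein-Friesian and 16, 0, 6 and 1 in Hereford. Leaving out a replicate number removes 1 Limousin bull and both of its partners.

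Of 8 methyltransferases of the METTL21 kind, limma called 0 in Holstein-Friesian (1 at an unadjusted p under 0.05, median -0.02) and 1 in Hereford (median 0.16). METTL21A, which methylates chaperones of the HSP70 family, rose in Hereford by 0.73 log2 (limma adjusted p = 0.0274) and had 0.29 in Holstein-Friesian (limma adjusted p = 0.274). The Hereford call was lost without any 1 of the 4 replicates (limma adjusted p 0.0591 to 0.103) and from the Hereford arrays alone (0.0971). METTL21C, a relative that is also made in muscle, had 0.81 in Holstein-Friesian (limma adjusted p = 0.0706) and 0.29 in Hereford. It passed in Holstein-Friesian with processed signals (2.45, limma adjusted p = 0.0264), with median centring (0.94, limma adjusted p = 0.0194) and without replicate 1 (1.04, limma adjusted p = 0.0382). Processed signals also called CAMKMT, a calmodulin methyltransferase, lower in Holstein-Friesian (-1.21, limma adjusted p = 0.00591, against -0.06 after normexp and loess), and median centring called METTL22 lower (-0.82, limma adjusted p = 0.0148). Of 8 known substrates of such enzymes, 1 fell in Holstein-Friesian (median 0.10) and 1 rose in Hereford (median 0.11). HSPA8, a constitutive HSP70 chaperone, fell by 0.57 log2 in Holstein-Friesian (limma adjusted p = 0.0291). It had -0.37 within 1 dye (limma adjusted p = 0.116). HSPA5, the chaperone of the endoplasmic reticulum, rose by 0.58 in Hereford (limma adjusted p = 0.0239) and had 0.48 within 1 dye (limma adjusted p = 0.0632). Without replicate 2, 3 or 4 the calls of HSPA8 (limma adjusted p 0.0916 to 0.153) and HSPA5 (0.0693 to 0.121) were lost.

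The smoothelin and calponin family had 5 measured genes besides SMTNL2, and limma called none of them lower in either breed. At an unadjusted p under 0.05, TAGLN3 was lower in Holstein-Friesian (-0.60), and it passed with median centring (-1.04, limma adjusted p = 0.0181). CNN2 passed in Holstein-Friesian with processed signals (0.77, limma adjusted p = 0.0308), against 0.53 after normexp and loess. TAGLN2, an actin-binding transgelin, rose in Holstein-Friesian by 0.97 log2 (limma adjusted p = 0.0293). With median centring it had 0.34 (limma adjusted p = 0.268). CNN1, the calponin of smooth muscle, rose in Hereford by 1.09 (limma adjusted p = 0.0254). Without replicate 2 or 4 the calls of TAGLN2 (limma adjusted p 0.108 to 0.144) and CNN1 (0.0879 to 0.139) were lost, as were TAGLN2 without replicate 1 (0.0515) and CNN1 without replicate 3 (0.0734). Of 7 measured markers of smooth muscle, limma called 0 in Holstein-Friesian and 2 in Hereford, MYL9 (0.83) and RGS5 (0.77), with 2 and 3 at an unadjusted p under 0.05. In Hereford MYH11 had -0.17, LMOD1 -0.30, DES 0.05 and MYLK 0.09, and the median of the list was 0.09. The mean level of these markers was 10.32 to 10.64 in Hereford, against 10.05 to 10.58 in Limousin, and their part was not tested. Of 10 genes of the JNK pathway, 2 rose in Holstein-Friesian (median 0.06), and 1 rose and 1 fell in Hereford (median 0.02). JUN, the transcription factor that JNK phosphorylates, rose by 1.89 in Holstein-Friesian (limma adjusted p = 0.00288) and 1.22 in Hereford (limma adjusted p = 0.00953). JUND rose by 1.60 in Holstein-Friesian (limma adjusted p = 0.0215). MAP2K4, a kinase upstream of JNK, fell by 0.36 in Hereford (limma adjusted p = 0.039) and had -0.31 within 1 dye (limma adjusted p = 0.0734). MAP2K4 lost its call without any 1 of the 4 replicates (limma adjusted p 0.0576 to 0.162), and in Holstein-Friesian it passed within 1 dye (-0.35, limma adjusted p = 0.0463). JUN in Hereford lost its call without replicate 2, 3 or 4 (limma adjusted p 0.0518 to 0.0645), and JUND in Holstein-Friesian without replicate 1, 2 or 4 (0.0639 to 0.137). JUND passed in Hereford without replicate 3 (1.03, limma adjusted p = 0.0242). MAPK8, which encodes JNK1, had 0.22 in Holstein-Friesian and -0.03 in Hereford and was not called.

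The NDRG family had 2 other measured genes, and limma called neither in either breed (0 at an unadjusted p under 0.05). With median centring NDRG3 was called lower in Holstein-Friesian (-0.63, limma adjusted p = 0.0148). After loess NDRG3 had -0.08 in Holstein-Friesian and 0.08 in Hereford, and NDRG4 had 0.24 and 0.36. Of 12 regulators and kinases of NDRG2, 1 rose and 2 fell in Holstein-Friesian (median 0.03), and 2 rose in Hereford (median -0.05). MYC, a repressor of NDRG2 in human cells, rose by 2.78 log2 in Holstein-Friesian (limma adjusted p = 0.00403) and by 1.28 in Hereford (limma adjusted p = 0.0348). With the Limousin bull as a block the Hereford call of MYC was lost (limma adjusted p = 0.0504). PPARGC1A, which encodes PGC-1alpha, had 0.65 in Holstein-Friesian (limma adjusted p = 0.292) and rose by 1.53 in Hereford (limma adjusted p = 0.0353). ESRRA, its partner receptor, had -0.63 and -0.10 and was not called. PPM1A, a phosphatase, fell by 0.65 in Holstein-Friesian (limma adjusted p = 0.0166) and had -0.53 within 1 dye (limma adjusted p = 0.103). GSK3B, a protein kinase, fell there by 0.40 (limma adjusted p = 0.0123). GSK3A had -0.36 in Holstein-Friesian and -0.47 in Hereford, and was not called. It passed in Hereford with the block (limma adjusted p = 0.0481), with a loess span of 0.7 (0.0464), with all readings above background (0.0496) and without replicate 1 (0.0337). In Holstein-Friesian it passed within 1 dye (-0.73, limma adjusted p = 0.0132) and with median centring (-0.98, limma adjusted p = 0.00619). Without replicate 2, 3 or 4 the calls of PPARGC1A (limma adjusted p 0.113 to 0.155) and MYC (0.107 to 0.137) in Hereford were lost, and those of PPM1A (0.0622 to 0.0983) and GSK3B (0.0727 to 0.0862) in Holstein-Friesian. MYC in Holstein-Friesian lost its call without replicate 2 (limma adjusted p = 0.0531). SGK1, a kinase that phosphorylates NDRG2 in mouse, had 0.08 and -0.51 and was not called.

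**Figure D5:**
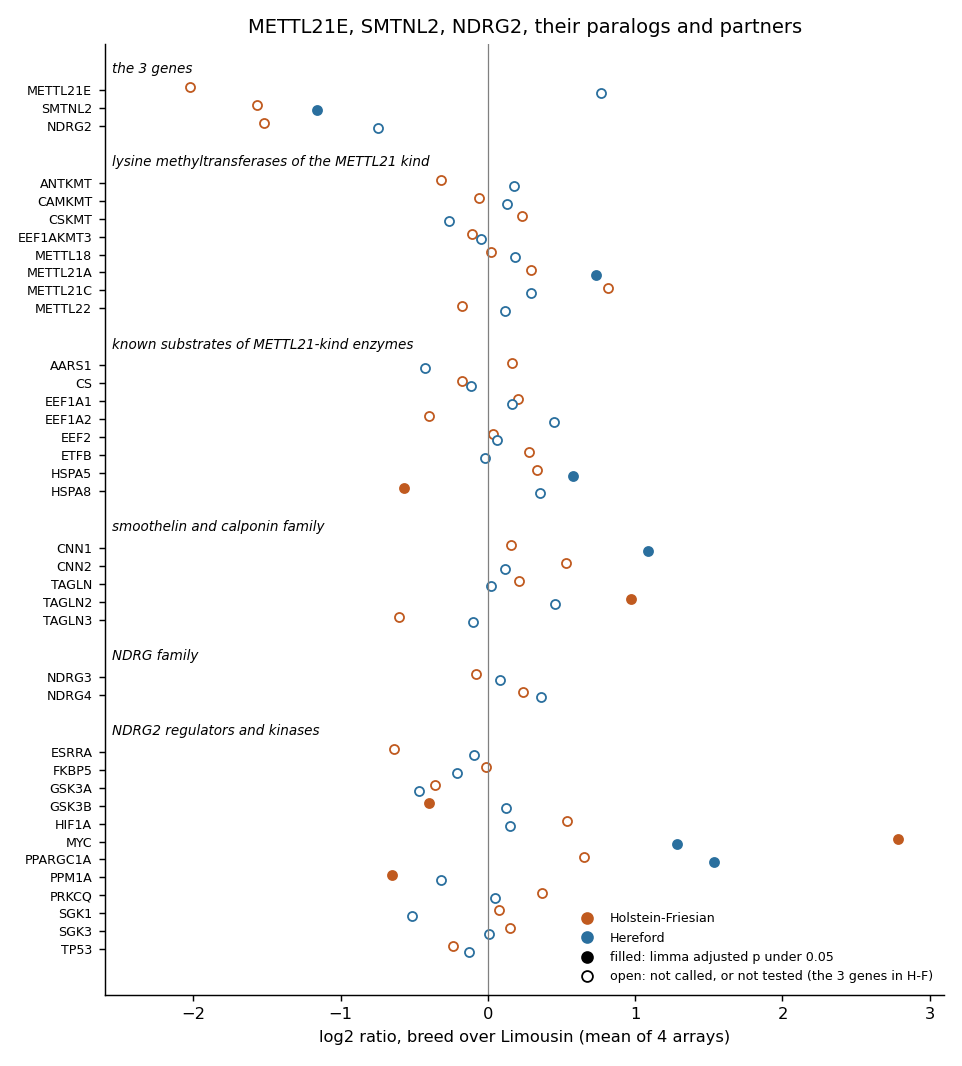
Mean log2 ratio of breed over Limousin (4 arrays each) for METTL21E, SMTNL2, NDRG2, their paralogs and partners; filled points passed a limma adjusted p under 0.05. The Holstein-Friesian values of the 3 genes were not tested; most related genes lie within 1 log2 unit of 0, and MYC lies at 2.78 in Holstein-Friesian.

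Fibre-type genes were read because these genes are transcribed in muscle fibres. Of 8 fast-fibre genes, 2 fell in Holstein-Friesian (median -0.38) and limma called 0 in Hereford (3 at an unadjusted p under 0.05, median 0.25). PVALB fell by 1.90 log2 (limma adjusted p = 0.0111) and TNNC2, the fast troponin C, by 0.68 (limma adjusted p = 0.0187). TNNC2 had -0.11 within 1 dye (limma adjusted p = 0.479), and its Limousin dye difference was 0.57. Without replicate 2 the calls of PVALB (limma adjusted p = 0.0728) and TNNC2 (0.067) were lost, and that of TNNC2 also without replicate 3 (0.0667) or 4 (0.105). Of 9 slow-fibre genes, 1 rose in Holstein-Friesian (median 0.88) and 4 in Hereford (median 1.18), with 8 and 6 at an unadjusted p under 0.05. MYH7, the slow myosin heavy chain, had 1.06 in Holstein-Friesian and 1.18 in Hereford, and the Hereford calls of MYH7 and MYL2 were lost with the block (limma adjusted p = 0.0714 and 0.0569). Both were also lost with processed signals (0.0746 and 0.0685), with median centring (0.0657 and 0.066) and from the Hereford arrays alone (0.0618 and 0.0541). Without replicate 2, 3 or 4 they were lost too (0.136 to 0.183). ATP2A2, called in Holstein-Friesian, lost its call there with median centring (limma adjusted p = 0.249) and from its arrays alone (0.0809). That call was also lost without replicate 2, 3 or 4 (limma adjusted p 0.0721 to 0.115). The Hereford call of ATP2A2 was lost without replicate 2 or 4 (limma adjusted p = 0.0615 and 0.0646). Within 1 dye, MYH7 (1.504, limma adjusted p = 0.0029) and MYL2 (1.26, limma adjusted p = 0.0195) passed in Holstein-Friesian. Of 20 immediate early genes, 14 rose in Holstein-Friesian (median 1.61) and 7 in Hereford (median 0.67), MYC and JUN among them. In Holstein-Friesian CCN1, GADD45A, MCL1 and NR4A1 lost their call without any 1 of the 4 replicates (limma adjusted p 0.0515 to 0.166). ATF3, FOS, JUND, KLF6 and MYC lost it without some replicates, and JUN, GADD45B, GADD45G, KLF4 and ZFP36 kept it. Each of the 7 Hereford calls was lost without at least 1 replicate.

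The label of the tissue was read from 14 measured muscle markers, whose mean level was 13.75 to 13.91 in Holstein-Friesian, 13.78 to 13.99 in Hereford and 13.57 to 14.08 in Limousin. Of these 14, 3 fell in Holstein-Friesian (CKMT2, LDB3 and MB) and 2 rose (CHRNA1 and TRIM63), and 1 rose in Hereford (CHRNA1). Within 1 dye MB had -0.56 in Holstein-Friesian (limma adjusted p = 0.115) and CHRNA1 0.56 in Hereford (limma adjusted p = 0.0707). The other calls passed within 1 dye (limma adjusted p 0.00774 to 0.0187). The median of the 14 markers was -0.18 in Holstein-Friesian and 0.05 in Hereford. Of 10 adipocyte markers, 1 rose and 1 fell in Holstein-Friesian and 0 were called in Hereford by limma (2 at an unadjusted p under 0.05). Limma called 2 of 7 lymphocyte markers, CD3E and CD8A, higher in Holstein-Friesian (list median 0.08) and 0 in Hereford (0 unadjusted). Neither passed within 1 dye in Holstein-Friesian (0.38 and 0.35, limma adjusted p = 0.102 and 0.135). Of 7 endothelial, 5 macrophage, 3 blood and 3 nerve markers, limma called 0 in either breed. At an unadjusted p under 0.05 these had 0, 2, 0 and 1 in Holstein-Friesian and 1, 2, 0 and 1 in Hereford.

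Across the arrays, median net signal was 30.5 to 46.5 intensity units in Holstein-Friesian, 97 to 139 in Hereford and 63 to 118 in Limousin, with 0 saturated spots. Arrays of 1 breed correlated over all probes at 0.403 to 0.595 in Holstein-Friesian and 0.0611 to 0.531 in Hereford. Hereford array 1, where METTL21E and NDRG2 were highest, had the lowest mean correlation with its own breed, 0.226. With 4 arrays a breed, precision is limited by their number.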

How the data were processed

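Per the submitters' processing notes, Agilent Feature Extraction 10.7.3.1 read the slides. Per the file headers, median spot and background brightness stood as intensity in each channel, and processed signals, also intensity, were background-subtracted and dye-normalized. Values in the deposited table were the scanner's log10 ratio (Cy5 over Cy3), identical in 44407 of 44407 spots. Its Holstein-Friesian arrays stood as Limousin over Holstein-Friesian and were turned. No value column was left unmapped.

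The 3 genes, the 18 gene lists and the tests were chosen with earlier results of these data known. Mean signals had been planned, but median signals were used because the scanner files held no mean signals. In R 4.3.3 with limma 3.58.1, normexp (offset 50) and loess (span 0.3) were applied, control and outlier spots were left out, and duplicate spots were averaged (21475 probes). The filter on dim probes asked for 4 or more of 16 channel readings well above background (17061 probes passed). Names came from a RefSeq table (assembly ARS-UCD2.0) by transcript accession, for 8297 probes. The array annotation follows another build, so no coordinates are given. Breed means were fitted over 8 arrays with lmFit and eBayes, two-sided, with Benjamini-Hochberg adjustment over 17061 probes and a call under 0.05. Single channels followed loess and Aquantile. Alternatives covered background, normalization, filters, left-out replicates, a block and the same dye. By the labels a Limousin animal has 1 replicate number in both comparisons, so numbers pair arrays by animal (correlation of same-bull deviations 0.0987 to 0.500, of other bulls -0.344 to 0.144). Named genes were the 3 genes, the 5 nearest to each, neighbours in the Holstein-Friesian order, and list genes that were called or had the 3 smallest p. On data simulated for Hereford against Limousin, the test called 82% of 100 probes changed by 1 log2 unit and 98% of 100 changed by 2. It made 13 false calls. These rates are over simulated probes and are not the power for any of the 3 genes. The labels call arrays biological replicates.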

Additional observations from a re-analysis of the deposited data

Results flagged for a closer look

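On 4 of 92 sets of 4 arrays, 1 array lay far from the other 3, and chance gives about 1 in 20. NDRG2 was 0.17 on Hereford array 1, against -1.09 to -1.003 on the others. METTL21A was 1.27 on Hereford array 3, against 0.54 to 0.57. JUND was 0.78 on Holstein-Friesian array 3, against 1.79 to 1.93. GADD45B was 2.04 on Holstein-Friesian array 2, against 1.44 to 1.53.

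The ratios of the breeds differed for 5 of 79 related genes by limma's test of Holstein-Friesian minus Hereford. The share of all probes passing this test was not counted, so the 5 are not set against a general rate. The test compares breeds read in opposite dyes. The difference was -0.52 for GSK3B (adjusted p = 0.0315), with -0.40 in Holstein-Friesian and 0.12 in Hereford (-0.42 and 0.14 within 1 dye). It was -1.16 for TNNC2 (limma adjusted p = 0.0231), with -0.68 and 0.48, although TNNC2 had -0.11 and -0.09 within 1 dye. It was -0.92 for HSPA8 (limma adjusted p = 0.0341), with -0.57 and 0.36 (-0.37 and 0.16 within 1 dye). GADD45B, a stress-response gene, differed by 2.08 (limma adjusted p = 0.0105), with 1.63 and -0.45 (1.49 and -0.31 within 1 dye), and ZFP36, which encodes a protein of mRNA decay, by 0.93 (limma adjusted p = 0.0357), with 1.69 and 0.76 (1.85 and 0.60 within 1 dye). EEF1A2 was lower than Limousin on all Holstein-Friesian arrays and higher on all Hereford arrays, with a difference of -0.85 that did not pass (limma adjusted p = 0.0674). Within 1 dye EEF1A2 had -0.07 and 0.12, and its Limousin dye difference was 0.33.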

How the results depend on the processing

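METTL21E, SMTNL2 and NDRG2 kept the sign of both ratios under every alternative run. SMTNL2 in Hereford lost its call from the Hereford arrays alone (-1.16, limma adjusted p = 0.0586) and ranged from -1.29 to -0.99 when 1 replicate was left out. NDRG2 in Hereford ranged from -1.05 to -0.63 and METTL21E from 0.26 to 1.14. Processed signals and deposited ratios gave METTL21E -2.87 in Holstein-Friesian and -3.69 for Holstein-Friesian minus Hereford. Median centring moved the median of all probes to -0.20 in Holstein-Friesian and 0.10 in Hereford. It gave SMTNL2 -2.22 and -1.39, and NDRG2 -2.19 and -1.86, for the same quantities, and turned MYH1 in Holstein-Friesian to -0.70 (limma adjusted p = 0.034), where the same dye gave 0.56 (limma adjusted p = 0.0185) and loess 0.04. Called probes in Holstein-Friesian numbered 1100 (46.5% higher), 2157 with processed signals, 2129 with deposited ratios, 6678 with median centring (29.0% higher) and 78 to 810 without 1 replicate. In Hereford they numbered 1218 (47.5% higher), 315 with median centring (87.0% higher), 683 in the same dye, 27 from its arrays alone and 30 to 1055 without 1 replicate. Related genes called numbered 38 with median centring and 5 to 15 without 1 replicate in Holstein-Friesian, and 9, 1 from the arrays alone and 0 to 16 in Hereford. The causes were not tested. With the replicate block, which pairs arrays by Limousin bull (correlation 0.305), SMTNL2 in Hereford had a limma adjusted p of 0.00987, NDRG2 0.117 and METTL21E 0.298, and 1080 probes passed in Holstein-Friesian and 1191 in Hereford. Beyond GSK3A, MYC, MYH7 and MYL2 in Hereford, the block changed no call of a named gene. The mean over several probes was not run, since each gene has 1 probe. The Holstein-Friesian spots of METTL21E were dim, and the part of this in the size of its ratio was not tested.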
